A study of Mus musculus with 8 samples.

Results

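Expression was read for 10 genes that cells switch on first when a signal reaches them, in pancreatic epithelium of Sox9 mutant mouse embryos and of their wild-type littermates. They are Jun, Junb, Fos, Fosb, Egr1, Egr2, Egr3, Atf3, Ier2 and Ier3, and they were found as every non-control probe whose deposited gene name is 1 of these 10 names. This gave 13 of the 41174 probes of the array, on 40 of its 43379 spots, and all 10 genes, of 27745 gene names on the array, had at least 1 probe. The Sox9 mutant group held 4 pools from embryos of genotype Sox9fl/fl; Rosa26-CreER, in which tamoxifen activates a recombinase that is made from the Rosa26 locus and so is not limited to the pancreas. The wild-type group held 4 pools from Rosa26-CreER littermates, which carried the same recombinase. The floxed allele came on a mixed FVB/N, C57Bl/6J and CD1 background and the recombinase allele on C57Bl/6J. The dams of both received 6 mg of tamoxifen per 40 g at e12.5, 3 days before the dorsal and ventral epithelia were microdissected at e15.5. Each pool combined 4 pancreata, so arrays differ as pools do, and single embryos were not measured. Each one-colour array carried the Cy3-labelled product of roughly 250 ng of 1 pool's RNA.

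Immediate early genes are transcribed from machinery already present in the cell, without the need for new protein, and their mRNAs are short-lived. They are known to respond to growth factors that act through ERK, to stress and to the handling of tissue. JUN and FOS family proteins pair to form AP-1, a dimer that binds DNA through a basic leucine zipper, while EGR proteins bind GC-rich sites through zinc fingers. In the embryonic pancreas, growth factors from the mesenchyme signal to the epithelium through receptors that feed into the ERK pathway.

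The promoters of the 4 genes that later passed the test of genotype are shown here, because short recognition sequences of stimulus-responsive factors are known in promoters of this gene class. Each runs 5′ to 3′ from 250 bases before to 50 bases after the annotated start in RefSeq, build GRCm38.p6, and lies in lower case except where a searched motif matched. Capitals mark TGACGT, the core of the cAMP response element, in Fos and on the opposite strand in Atf3, and TGACNTCA, the site class known in the Jun promoter, in Jun. The Jun window is chr4:95052173-95052472 on the minus strand, and the Fos window is chr12:85473640-85473939 on the plus strand. The Atf3 window is chr1:191183284-191183583 on the minus strand, and the Ier3 window is chr17:35821463-35821762 on the plus strand.
Jun: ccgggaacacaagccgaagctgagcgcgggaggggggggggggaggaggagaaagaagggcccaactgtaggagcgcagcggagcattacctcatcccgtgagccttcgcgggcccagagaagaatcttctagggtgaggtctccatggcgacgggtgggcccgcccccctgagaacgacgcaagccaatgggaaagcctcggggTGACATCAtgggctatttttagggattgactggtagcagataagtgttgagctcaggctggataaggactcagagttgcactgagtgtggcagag
Fos: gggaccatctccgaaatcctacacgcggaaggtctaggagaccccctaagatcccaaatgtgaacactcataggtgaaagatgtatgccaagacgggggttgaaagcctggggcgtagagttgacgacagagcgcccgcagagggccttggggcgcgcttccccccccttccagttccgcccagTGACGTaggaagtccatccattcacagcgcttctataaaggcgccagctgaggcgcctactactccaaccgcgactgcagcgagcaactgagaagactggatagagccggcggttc
Atf3: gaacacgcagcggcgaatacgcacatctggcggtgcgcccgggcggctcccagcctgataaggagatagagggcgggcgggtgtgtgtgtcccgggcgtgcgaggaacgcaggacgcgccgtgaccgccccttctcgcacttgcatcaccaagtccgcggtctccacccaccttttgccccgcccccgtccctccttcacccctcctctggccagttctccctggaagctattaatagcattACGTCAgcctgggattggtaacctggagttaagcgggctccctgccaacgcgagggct
Ier3: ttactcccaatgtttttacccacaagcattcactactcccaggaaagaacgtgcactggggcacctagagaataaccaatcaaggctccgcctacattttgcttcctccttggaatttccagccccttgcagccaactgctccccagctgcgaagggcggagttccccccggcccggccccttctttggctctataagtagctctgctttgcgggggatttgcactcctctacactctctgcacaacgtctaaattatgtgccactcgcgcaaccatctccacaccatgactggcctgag

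RefSeq windows were used for 7 of the 10 genes, and those of Egr1, Egr3 and Ier2 were not used here. Over all 32851 windows of this length, counting both strands, TGACGT was found in 7.51%, TGACNTCA in 8.83%, the complete TGACGTCA in 1.79%, the AP-1 site TGANTCA in 7.81%, the EGR site GCGNGGGCG in 5.55% and the CArG box of serum response factor in 1.63%. TGACGTCA holds both TGACGT and TGACNTCA, so these matches can overlap. In Jun the match to TGACNTCA had the letters TGACATCA, and began at position -45, counting the start as 0. In Fos TGACGT began at -66, and in Atf3 it ran over -8 to -3 on the other strand. Egr2, the zinc finger factor known from hindbrain and Schwann cells, held a CArG box in 4 of its 5 windows, 3 of which overlap and share the match CCATATATGG. Those 3 windows also held TGACGT on the other strand, and Egr2 was not called, so this motif was not limited to called genes. The Fosb window held 1 match to the EGR site, and neither the Ier3 nor the Junb window held a match to any of the 6 motifs. A match describes letters in the window only.

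Values below are log2 levels with each array's own 75th percentile set to 0, computed from background-subtracted scanner intensity, and differences are Sox9 mutant minus wild type on that scale. A level of 1 therefore means a signal above that percentile and a negative level one below it, and levels of different probes are not compared. A gene was tested when its probe was called well above background by the feature extraction on at least 4 of the 8 arrays. Where a gene had several such probes, the one with the highest mean over all arrays stood for it. All 10 genes passed, through 12 of their 13 probes. Differences were tested with limma over 19391 features, and a feature was called at a Benjamini-Hochberg adjusted p under 0.05.

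The following facts of the whole series bear on these values. Sox9 itself fell to 0.50 ± 0.08 in mutants, against 1.83 ± 0.07 in wild type (SD, n = 4 pools each), with a log2 difference of -1.33 and an adjusted p of 8.05e-04 (limma). This is a 2.51-fold fall by the probe with the highest mean, and signal of that probe remained on the mutant arrays, at levels of 0.40 to 0.59. The size of the fall depended on the processing. The difference was -1.07 with all Sox9 probes averaged (adjusted p 0.0174, limma) and -2.37 with the authors' series table (adjusted p 5.22e-04). With median centring it was -1.73 and not called (adjusted p 0.110, limma). The array of mutant replicate 2 had a median signal of 756 scanner units and a negative control median of 284 units, against 219 to 272 and 69 to 87 on the other 7 arrays, so the differences of the 10 genes and the counts of called genes are also given without it. All mutant arrays were on 1 slide and scan and all wild-type arrays on another, so slide and genotype cannot be told apart. Markers of pancreatic epithelium were present, with 11 of 11 above background on at least 4 arrays. So were all markers of mesenchyme (10), endothelium (8), myeloid and lymphoid cells (9), erythroid cells (9) and neurons with Schwann cells (10), and 0 of them was below background on all arrays.

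Jun, Fos, Atf3 and Ier3 were higher in Sox9 mutant epithelium, by 1.64-fold, 1.42-fold, 2.81-fold and 1.69-fold. They are 4 of the 10 genes, against 2.13% of all features called higher and 5.58% called in either direction. Of the 10 genes 0 were called lower by limma, against 3.45% of all features called lower. At an unadjusted p under 0.05 with all arrays 7 of the 10 were higher and 0 lower, against 25.5% of all features in either direction. Without mutant replicate 2 Fosb was lower at an unadjusted p of 0.0124 (limma, adjusted p 0.0615). The 10 genes had a median log2 difference of 0.52, against -0.0045 over all features, and 8 of the 10 were positive, against 49.4% of all features. In 5 genes every mutant pool lay above every wild-type pool and in 1 every mutant pool lay below, against 10.6% and 15.1% of all features. Without mutant replicate 2 the genes called higher were 6, with Junb and Egr1 added, against 6.77% of all features, and 0 were called lower, against 10.6%. The same 8 genes were positive then, against 44.3% of all features, and 7 had every mutant pool above every wild-type pool, against 14% of features. With each array centred on its median instead, 0 of the 10 genes were called with all arrays and 6 without mutant replicate 2. In this bulk RNA, more cells that express a gene and more of its RNA in each cell cannot be told apart.

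**Figure D1:**
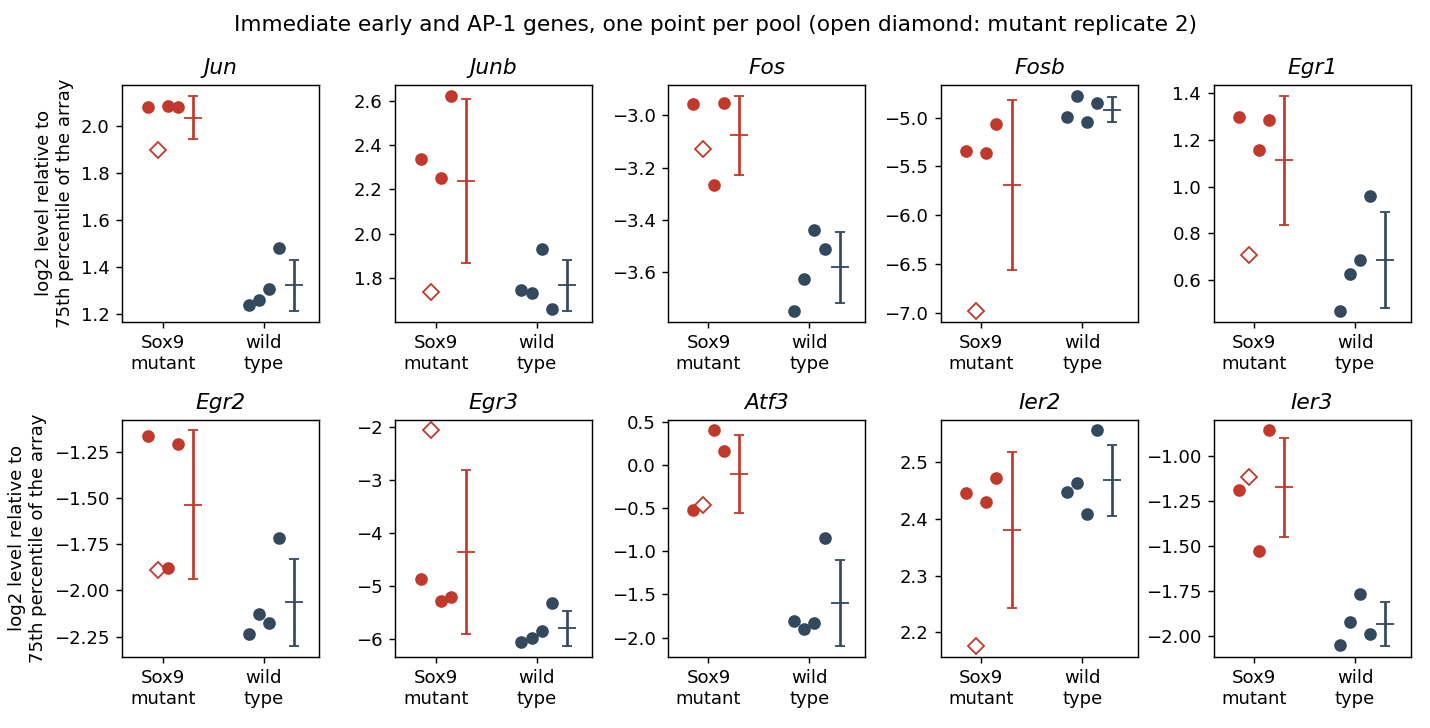
Log2 level of each gene's main probe, with each array's 75th percentile at 0, in the 4 Sox9 mutant pools (red) and the 4 wild-type pools (dark), each panel with its own axis; bars give the mean ± SD and the open diamond is mutant replicate 2. The mutant pools lie wholly above the wild-type pools for Jun, Fos, Egr3, Atf3 and Ier3 and wholly below for Fosb.

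Jun encodes the AP-1 subunit that can pair with itself or with a FOS protein. Its probe (A_51_P325914, chromosome 4, 94541191 to 94541250, assembly mm8) read 2.08, 1.90, 2.08 and 2.08 in mutant replicates 1 to 4, against 1.24, 1.26, 1.31 and 1.48 in wild-type replicates 1 to 4. The 4 mutant pools were all above the 4 wild-type pools, and 3 of them lay almost on top of each other. Jun rose to 2.04 ± 0.09, against 1.32 ± 0.11 in wild type (SD, n = 4 each), a log2 difference of 0.71 ± 0.08 (SE) at adjusted p 0.00593 (limma). It was called whichever of the 8 arrays was left out, with differences between 0.68 and 0.77. By unadjusted p it stood 107th of the 19391 features, and 9.82% of features had a difference at least as large.

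Fos encodes the partner of JUN in the classic AP-1 dimer. Its probe (A_52_P262219, chromosome 12, 86366053 to 86366112) read -2.96, -3.13, -3.27 and -2.95 in the mutant pools, against -3.75, -3.63, -3.44 and -3.51 in the wild-type pools. The groups did not overlap, but the lowest mutant pool, replicate 3, was near the highest wild-type pool, also replicate 3. Fos rose to -3.08 ± 0.15, against -3.58 ± 0.14 in wild type (SD, n = 4 each), a log2 difference of 0.50 ± 0.10 (SE) at adjusted p 0.0369 (limma). The call held in 2 of the 8 fits that left out 1 array, those without mutant replicate 2 (adjusted p 0.0213, limma) and without mutant replicate 3 (adjusted p 0.0474), and the adjusted p reached 0.108 in the others. Quantile normalization turned the difference to -0.36 (adjusted p 0.764, limma), and gave 0.49 (adjusted p 0.0265) when mutant replicate 2 was also left out.

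Jun, Fos and Egr2 were each printed as 10 spots on every array, which shows the spread between spots of 1 hybridisation and not that of labelling or of arrays. The SD of log2 signal between spots of 1 array was 0.03 to 0.08 for Jun, 0.05 to 0.11 for Fos and 0.05 to 0.11 for Egr2. The mean of the spots therefore had a standard error of at most 0.034 on any array for each of the 3 genes. On the mutant arrays the lowest Jun spot used read 8285 scanner units, and the highest wild-type spot read 6314 units. Before scaling between arrays, the Fos spots of mutant replicate 3, at 207 to 232 units, also lay above the 137 to 202 units of all wild-type spots. Scaling shifts each array by its own amount, so a separation of spots in these units need not hold for the scaled levels. The scaled Fos levels of mutant replicate 3 and wild-type replicate 3 were -3.27 and -3.44. For Egr2 the spots of mutant replicates 2 and 3, at 574 to 721 and 507 to 588 units before scaling, overlapped or lay below those of wild-type replicate 4, at 631 to 713 units, and lay above those of the other wild-type arrays.

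**Figure D2:**
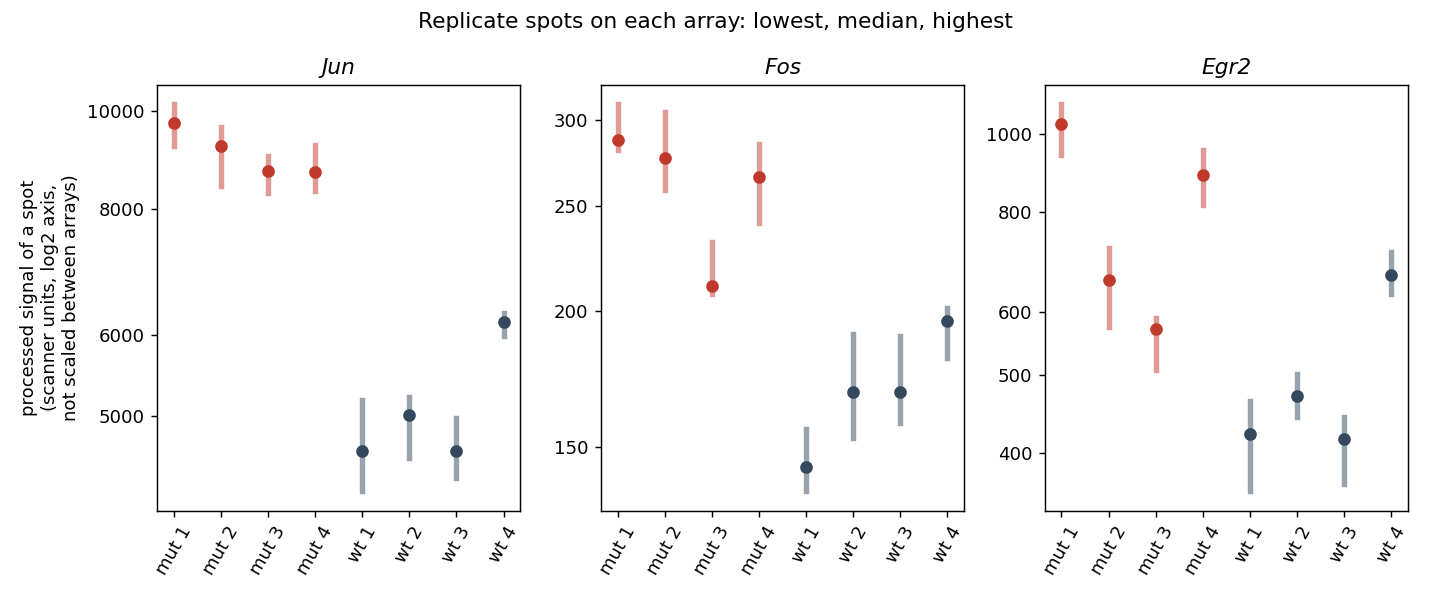
Processed signal of the replicate spots for Jun, Fos and Egr2 on each array, in scanner units before scaling between arrays, on a log2 axis; the bar runs from the lowest to the highest spot used and the point is the median. In these unscaled units every Jun and Fos spot of the mutant arrays (red) lies above every wild-type spot (dark), while Egr2 in mutant replicates 2 and 3 falls beside wild-type replicate 4.

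Junb, an AP-1 subunit that in many settings moderates JUN, had a pair of probes whose targets share 22 bases. The probe with the higher mean (A_51_P159201, chromosome 8, 87867087 to 87867146) read 2.33, 1.74, 2.25 and 2.62 in mutants, against 1.75, 1.73, 1.93 and 1.66 in wild type. Mutant replicate 2 stood among the wild-type pools and the other 3 mutant pools above them. The means were 2.24 ± 0.37 in mutants and 1.77 ± 0.12 in wild type (SD, n = 4 each), a log2 difference of 0.47 with an adjusted p of 0.162 (limma). Without mutant replicate 2 the difference was 0.64 with an SE of 0.11, and it was called (adjusted p 0.0110, limma). The second probe (A_51_P159194, 87867049 to 87867108) read 2.41, 1.96, 2.42 and 1.76 in mutants, against 1.58, 1.63, 1.90 and 1.73 in wild type. The probes disagreed in mutant replicate 4, the highest mutant pool by 1 and the lowest by the other. By the second probe the difference was 0.49 without mutant replicate 2 and was not called (adjusted p 0.0992, limma, over the 29462 probes that passed).

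Fosb, the FOS relative known for long-lived splice forms in neurons, was near the detection limit. Its probe (A_51_P138378, chromosome 7, 18461650 to 18461709) read -5.35, -6.98, -5.36 and -5.07 in mutants, against -5.00, -4.78, -5.05 and -4.85 in wild type, and was not well above background in mutant replicate 2. Every mutant pool was below every wild-type pool, by a narrow margin for mutant replicate 4. The log2 difference was -0.77 with an SE of 0.40 (adjusted p 0.265, limma), and -0.34 with an SE of 0.10 without mutant replicate 2 (adjusted p 0.0615). Fosb was called in 0 of the 8 fits that left out 1 array, at unadjusted p of 0.0924 with all arrays and 0.0124 without mutant replicate 2.

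Atf3, a stress-induced leucine zipper factor that can dimerise with JUN, had the largest difference among the genes that were called. Its probe (A_52_P452689, chromosome 1, 192871283 to 192871342) read -0.51, -0.46, 0.40 and 0.16 in mutants, against -1.80, -1.90, -1.83 and -0.85 in wild type. Wild-type replicate 4 stood well above the other wild-type pools, and still below all mutant pools. Atf3 rose to -0.10 ± 0.45, against -1.60 ± 0.50 in wild type (SD, n = 4 each), a log2 difference of 1.49 ± 0.31 (SE) at adjusted p 0.0379 (limma). The 95% interval of the fold ran from 1.71 to 4.63, and 1.59% of features had a difference at least as large. The call held in 2 of the 8 fits that left out 1 array, without mutant replicate 2 (1.61, adjusted p 0.0178, limma) and without wild-type replicate 4 (1.74, adjusted p 0.0258), and the adjusted p reached 0.119 in the others.

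**Figure D3:**
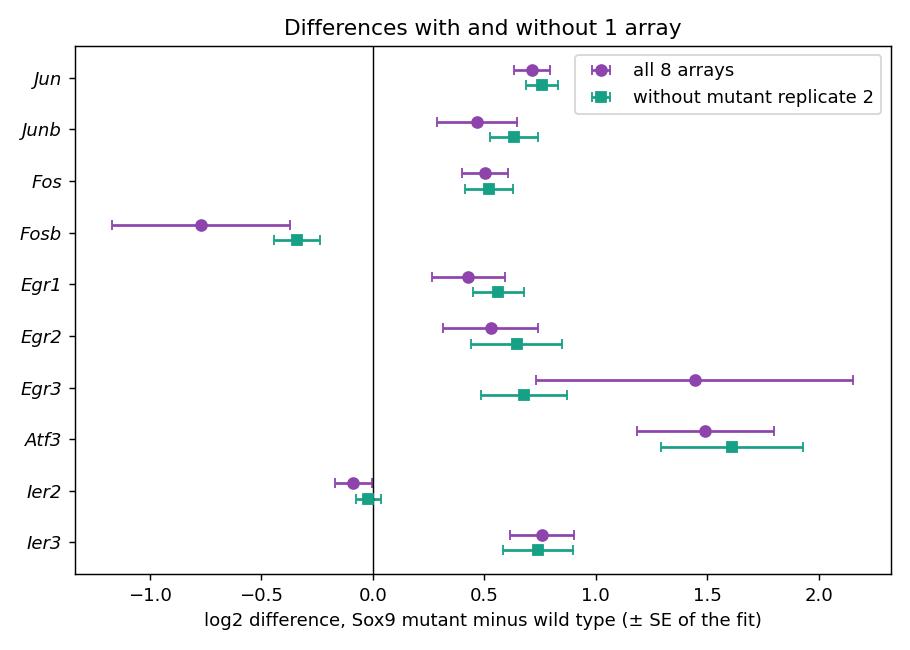
Log2 difference, Sox9 mutant minus wild type, with its SE from the limma fit, for the 10 genes with all 8 arrays (circles) and without mutant replicate 2 (squares). Without that array the difference is 0.64 for Junb, -0.34 for Fosb, 0.68 for Egr3 and 0.76 for Jun, against 0.47, -0.77, 1.44 and 0.71 with it.

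The EGR genes encode zinc finger factors, of which EGR1 is a widespread reporter of ERK activity. The Egr1 probe (A_51_P367866, chromosome 18, 34990715 to 34990774) read 1.30, 0.71, 1.16 and 1.29 in mutants, against 0.47, 0.62, 0.69 and 0.96 in wild type. Mutant replicate 2 stood between the wild-type pools, and the other 3 mutant pools were above all wild-type pools. The means were 1.11 ± 0.28 in mutants and 0.68 ± 0.21 in wild type (SD, n = 4 each), a log2 difference of 0.43 with an adjusted p of 0.157 (limma). Without mutant replicate 2 the difference was 0.56 with an SE of 0.12, and Egr1 was called (adjusted p 0.0203, limma), as it was in 1 of the 8 fits that left out 1 array.

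Egr2 (A_51_P173043, chromosome 10, 66937367 to 66937426) read -1.17, -1.89, -1.88 and -1.21 in mutants, against -2.24, -2.13, -2.18 and -1.72 in wild type. Mutant replicates 1 and 4 were high, and replicates 2 and 3 lay between wild-type replicate 4 and the other wild-type pools. The log2 difference was 0.53 with an SE of 0.21 (adjusted p 0.179, limma) and 0.65 without mutant replicate 2 (adjusted p 0.0707), and it was called in 0 of the 8 fits that left out 1 array. Egr3, which acts with EGR2 in muscle spindles and lymphocytes, was read by 1 probe that passed (A_52_P440836, chromosome 14, 68817252 to 68817311). It read -4.87, -2.06, -5.29 and -5.21 in mutants, against -6.06, -5.98, -5.85 and -5.32 in wild type, where it was well above background on 3 of the 4 arrays. The groups did not overlap, and mutant replicate 2 stood far above all others. The log2 difference of 1.44 had an SE of 0.71 (adjusted p 0.246, limma), and without that array it was 0.68 with an SE of 0.19 (adjusted p 0.0539). The other Egr3 probe (A_51_P437198, 68814100 to 68814159) was well above background on 2 mutant arrays and on 0 wild-type arrays and was not tested.

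IER2 is a nuclear protein and IER3 a regulator of cell survival. The brighter Ier2 probe by its mean (A_51_P481325, chromosome 8, 87549656 to 87549690) read 2.45, 2.18, 2.43 and 2.47 in mutants, against 2.45, 2.46, 2.41 and 2.56 in wild type. Mutant replicate 2 was the lowest pool, and the other 3 mutant pools lay inside the wild-type range. The log2 difference was -0.09 with a 95% interval of -0.28 to 0.11 (adjusted p 0.519, limma), and -0.02 without mutant replicate 2. By this probe the upper end of the interval with all arrays was 1.08-fold, and the 95% interval of Jun ran from 1.44-fold to 1.87-fold. The difference between the genes was not tested. The second Ier2 probe (A_52_P554555, 87549829 to 87549887) had a difference of 0.18 (adjusted p 0.493, limma, over all probes that passed). Its 95% interval of the fold was wider, 0.87 to 1.48, and reached into that of Jun.

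Ier3 (A_51_P286488, chromosome 17, 35430636 to 35430695) read -1.19, -1.12, -1.53 and -0.86 in mutants, against -2.05, -1.93, -1.77 and -1.99 in wild type. All mutant pools were above all wild-type pools, and mutant replicate 2 was not an extreme one. Ier3 rose to -1.17 ± 0.28, against -1.93 ± 0.12 in wild type (SD, n = 4 each), a log2 difference of 0.76 ± 0.14 (SE) at adjusted p 0.0300 (limma). The call held in 2 of the 8 fits that left out 1 array, without mutant replicate 2 (0.74, adjusted p 0.0217, limma) and without mutant replicate 3 (0.88, adjusted p 0.0214), and the adjusted p reached 0.100 in the others.

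The pools also differed within a genotype. Wild-type replicate 4 had the highest wild-type level in 6 of the 10 genes, namely Jun, Egr1, Egr2, Egr3, Atf3 and Ier2. Mutant replicate 2 had the lowest mutant level in 6 of the 10, namely Jun, Junb, Fosb, Egr1, Egr2 and Ier2, and the highest in Egr3. Mutant replicate 4 had the highest mutant level in 5 of the 10, namely Junb, Fos, Fosb, Ier2 and Ier3.

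Further genes of the same system were read from lists. Of 12 further AP-1 family genes, all tested, 1 rose and 0 fell, with a median log2 difference of 0.19. The riser was Batf3, a partner of JUN proteins known from dendritic cells, at -0.90 ± 0.13 in mutants and -1.28 ± 0.07 in wild type (SD, n = 4 each), a difference of 0.38 (adjusted p 0.0448, limma), which was -0.023 under median centring, a setting that shifted every feature down alike. Batf3 was called in 1 of the 8 fits that left out 1 array, the one without mutant replicate 2 (0.39, adjusted p 0.0228, limma), where Mafk was called too and the list median was 0.09. In the other fits its adjusted p was 0.0622 to 0.117. Of 16 further immediate early transcription factors, 13 were tested and 0 were called in either direction, also 0 without mutant replicate 2, with a median of -0.08. In limma 0 of the 13 had an unadjusted p under 0.05, against 25.5% of all features in either direction. The smallest belonged to Srf, the serum response factor, at -0.21 (adjusted p 0.203, unadjusted p 0.0535, limma). Next was Maff, a small MAF protein listed in the AP-1 family too, at 0.43 (adjusted p 0.277, limma). The counts of called genes in these 2 lists stand against 2.13% of all features called higher and 3.45% lower with all arrays. Without mutant replicate 2 these shares were 6.77% and 10.6%.

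Of 25 immediate early effectors and feedback genes, 24 were tested and 1 rose, with 0 falling and a median of 0.18, against 2.13% of all features called higher and 3.45% lower. Gem, a small GTPase induced by mitogens, read -0.28, -0.24, -0.31 and -0.30 in mutants, against -1.54, -1.63, -1.40 and -1.25 in wild type. Its 4 mutant pools were close together and far above the wild-type pools. The log2 difference was 1.17 ± 0.09 (SE), a 2.26-fold rise (adjusted p 0.00216, limma), and it was called whichever of the 8 arrays was left out. With median centring it was 0.78 and not called (adjusted p 0.516, limma), and 1.13 (adjusted p 0.00142) when mutant replicate 2 was also left out. Without mutant replicate 2, 6 of these genes rose and 1 fell, with a median of 0.26, against 6.77% and 10.6% of all features. Named after their values were seen, the genes that rose were Gem, Sgk1 (0.46), Gadd45b (0.34), Rhob (0.28), Zfp36l1 (0.27) and Ccn1 (0.71, named Cyr61 on the array), and Tnfaip3, the feedback inhibitor of NF-kappaB, fell (-0.35).

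Of 22 upstream kinases and regulators, 21 were tested and 2 rose, with 0 falling and a median of 0.03, against 2.13% of all features called higher and 3.45% lower. Mapk8, which encodes the JUN kinase JNK1, was at -0.63 ± 0.33 in mutants and -1.45 ± 0.12 in wild type (SD, n = 4 each), a log2 difference of 0.82 (adjusted p 0.0363, limma), and 0.66 without mutant replicate 2 (adjusted p 0.00477). This is the probe with the highest mean, and with all Mapk8 probes averaged the difference was 0.17 and was not called (adjusted p 0.635, limma). Rps6ka3, the ERK-activated kinase RSK2, had a difference of 0.31 (adjusted p 0.0421, limma), which was -0.090 under median centring, and 0.28 without mutant replicate 2 (adjusted p 0.0244). Both were called in 1 of the 8 fits that left out 1 array, the one without mutant replicate 2, where 4 of these genes rose and Mapk3, which encodes ERK1 and was named after its value was seen, fell (-0.28), against 6.77% of all features higher and 10.6% lower.

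Of 22 genes known as AP-1 or EGR1 targets, 15 were tested, 1 rose and 1 fell, with a median of 0.17, against 2.13% of all features called higher and 3.45% lower. The same 2 genes were called without mutant replicate 2, against 6.77% and 10.6% of all features. Plaur, the urokinase receptor, read -0.39, -0.80, -0.75 and -0.39 in mutants, against -1.59, -1.61, -1.67 and -1.42 in wild type. No mutant pool came near a wild-type pool. Its log2 difference was 0.99, or 1.99-fold (adjusted p 0.00735, limma), called whichever of the 8 arrays was left out. It was not called with median centring (0.59, adjusted p 0.516, limma) or quantile normalization (0.83, adjusted p 0.0537). When mutant replicate 2 was also left out these gave 1.03 (adjusted p 0.00285, limma) and 1.06 (adjusted p 0.00245). Ccnd1, which encodes cyclin D1, fell by 0.51 on the log2 scale (adjusted p 0.0210, limma), called in 3 of the 8 fits that left out 1 array.

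Heat shock genes are another set that responds to stress. Of 12 listed, 11 were tested, 0 rose and 2 fell, with a median of -0.04, against 2.13% of all features called higher and 3.45% lower, and a count of 0 of 11 is near that share. The same 2 genes fell without mutant replicate 2, against 10.6% of all features, and the median was 0.0071. Hsph1, a chaperone of the HSP110 class, fell by 0.64 on the log2 scale (adjusted p 0.0119, limma), and was called whichever of the 8 arrays was left out. With median centring its difference was -1.04 and was not called (adjusted p 0.438, limma), and -0.62 when mutant replicate 2 was also left out (adjusted p 0.00506). Hspe1, the mitochondrial co-chaperonin, fell by 0.47 with all arrays (adjusted p 0.0275, limma). In the 8 fits that left out 1 array its difference was -0.52 to -0.42, and it was called in 2 of them. The summed heat shock signal, in multiples of the 75th percentile, was 181 to 219 in mutants and 204 to 225 in wild type. Without mutant replicate 2 the mutant sums were 206 to 219, inside the wild-type range.

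**Figure D4:**
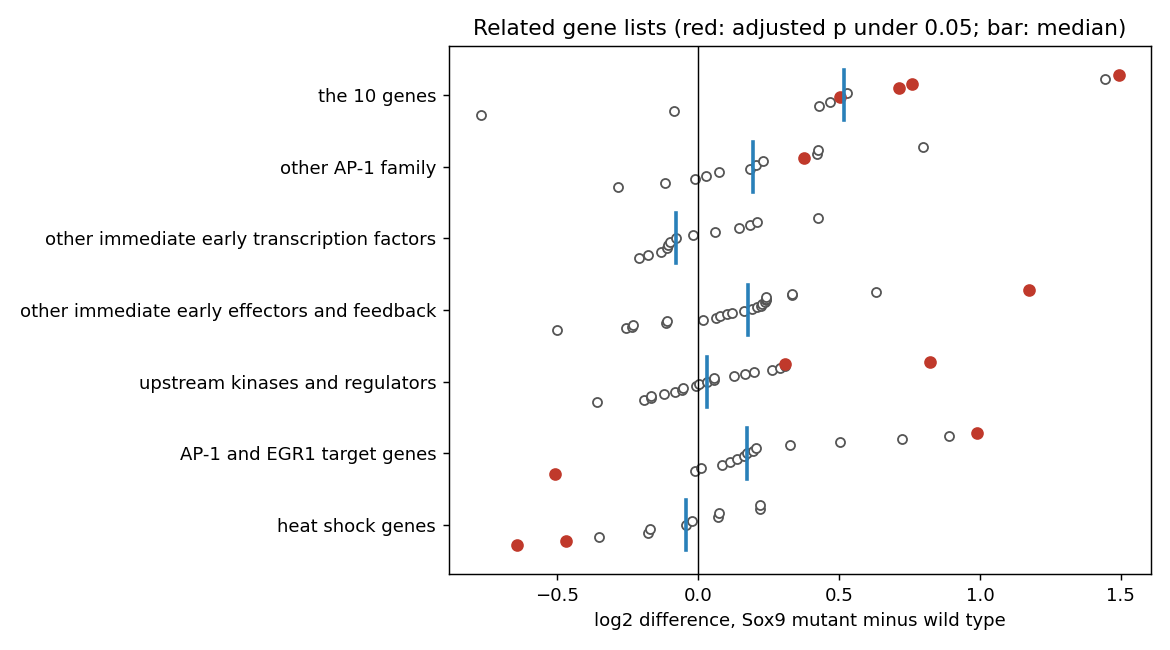
Log2 difference, Sox9 mutant minus wild type, of every tested gene in the 10-gene set and in 6 related lists; red points have an adjusted p under 0.05 and the bar is the median. The 10 genes have the highest median, 0.52, and the further immediate early transcription factors one of -0.08.

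Markers of other cell types were read beside these values. The summed signal of myeloid and lymphoid markers was 20.6 to 28.5 in mutants and 26.1 to 33.5 in wild type. That of endothelial markers was 20.2 to 24.5 in mutants and 21.8 to 24.6 in wild type, and that of mesenchymal markers 300.2 to 398 in mutants and 378 to 450.1 in wild type. Without mutant replicate 2 the mutant sums were 23.9 to 28.5 for myeloid and lymphoid, 23.7 to 24.5 for endothelial and 359 to 398 for mesenchymal markers. Of these 3 lists 0 genes were called by limma with all arrays, against 5.58% of all features. At an unadjusted p under 0.05 there were 2 myeloid and lymphoid, 0 endothelial and 1 mesenchymal genes, against 25.5% of all features. Without mutant replicate 2 the called genes were 1, Itgam, which was higher, against 6.77% of all features. Neuron and Schwann cell markers summed to 4.39 to 6.73 in mutants and 7.65 to 10.6 in wild type, with 3 of 10 called, all lower, against 3.45% of all features, and 4 called lower without mutant replicate 2, against 10.6%. The groups did not overlap in that sum, and its part in the levels of the 4 called genes was not tested. Erythroid markers summed to 8.67 to 47.2 in mutants, 8.67 to 39.6 without mutant replicate 2, and 31.8 to 57.5 in wild type. Of the 9 markers 2 were called, the globin genes Hbb-y (1.67) and Hba-x (1.42), both higher, against 2.13% of all features. The same 2 were called higher without mutant replicate 2, against 6.77%. With all arrays 7 of the 9 were positive, and Hba-a1, at -0.31, was not called. Pancreatic epithelial markers summed to 302 to 402 in mutants, 374 to 402 without mutant replicate 2, and 355 to 383 in wild type. With all arrays 3 of 11 were called, all lower, Sox9 among them, against 3.45% of all features. The same 3 were called lower without mutant replicate 2, against 10.6% of all features. There Krt8 (0.31), Krt18 (0.41) and Krt19 (0.47), keratins of simple epithelia, were called higher, against 6.77%.

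Genes whose levels ran most like those of Jun, Fos and Egr1 were found by Pearson r over the 8 arrays, as a description, since genotype and mutant replicate 2 are shared by all. For Jun they were Inhbb (0.996), which encodes an activin subunit, Aspn (0.994), Myof (0.992), Chrdl1 (0.992) and Ajuba (0.988). The log2 difference of Inhbb was 1.36 and that of Ajuba 0.37. For Fos they were the unnamed probes A_52_P98452 (0.975) and A_52_P4482 (0.973), then Zfp935 (0.967), 2410141K09Rik (0.967) and Pth1r (0.966). For Egr1 they were Rlim (0.991), Mad2l2 (0.984), Tmem120a (0.983), Gpbp1 (0.980) and Map3k1 (0.978), a kinase of the JNK pathway.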

How the data were processed

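Total RNA of 8 pools was hybridised to one-colour Agilent arrays of design 014868, scanned with Feature Extraction 9.5.3.1, per the file headers. The deposited processed signal is an intensity on a linear scale, background-subtracted by the authors' scanner software, per the file headers; limma is named in the submitters' processing notes. Probe coordinates are those of the files (mm8), and no annotation of that build was used, so exon or UTR positions were not analysed here. Control spots and spots marked as outliers were left out, and log2 intensities of replicate spots were averaged. The 75th percentile of these probe values on the array was then subtracted. The genotypes were compared by lmFit and eBayes of limma 3.58.1 in R 4.3.3, with Benjamini-Hochberg adjustment over 19391 features. A feature is 1 probe per gene, the one with the highest mean, well above background on at least 4 arrays. Gene symbols were updated through RefSeq (GRCm38.p6) by accession for 24375 probes, by symbol for 6301 and by synonym for 2426, and 8072 did not match. The fit was also run on simulated data, in which the noise of a feature was independent and of equal spread on every array. Such data hold neither an array like mutant replicate 2 nor slides shared by genotype, so the run does not bear on these calls. Named by rule beside the 10 genes and Sox9 were up to 4 called genes of each related list, or the 2 with the smallest p where none was called, and the 5 features most like Jun, Fos and Egr1. Outside this rule, and named after their values were seen, were Mafk, Itgam, Hbb-y, Hba-x, Hba-a1, Krt8, Krt18 and Krt19. The same holds for the genes so marked above. The genes and lists were chosen with earlier results of these data known. Only 4 arrays per genotype limit the precision.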

Additional observations from a re-analysis of the deposited data

Results flagged for a closer look

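In 5 of the 46 groups of 4 pools examined, 1 pool stood apart from the other 3, its gap to the nearest pool divided by the group's range being above Dixon's 95% critical value for 4 samples. Chance flags about 1 in 20 groups. In 4 of the 5 the pool was mutant replicate 2, the array with the high background. Its Jun level was 1.897, with 2.081 in the nearest mutant pool, and its Ier2 level was 2.177, with 2.43 in the nearest. Its Fosb level was -6.983, with -5.362 in the nearest mutant pool, and its Egr3 level was -2.058, with -4.866 in the nearest. The remaining one was Atf3 in wild-type replicate 4, at -0.8479, with -1.804 in the nearest wild-type pool.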

How the results depend on the processing

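The count of features called, 1082, was 572 with the raw median signal, 45 with median centring, 2181 with the authors' series table, 398 with no filter on dim probes, 716 with probes of a gene averaged and 4795 with array weights. It was 358 to 3364 when 1 array was left out, the highest without mutant replicate 2. Of the 10 genes, 4 in the reported fit, 3 were called with the raw median signal, 0 with median centring, 1 with quantile normalization (Jun), 2 of the 7 present in the series table, 1 with no filter on dim probes (Jun), 8 with array weights, and 1 to 6 when 1 array was left out. Median centring shifted all features alike, to a median of -0.40, and with that shift Batf3 was -0.023 and Rps6ka3 -0.090. Normexp background correction called 80 features and 0 of the 10 genes. On wild-type replicate 3, 9 spots were dimmer than their local background, and the 5th percentile of the corrected log2 signal there was 10.39, against 6.00 to 7.43 on the other arrays. Under it Fos was -0.067, Egr3 -0.0018 and Ier2 0.0035. Gem, Plaur and Hsph1 lost their calls under it (adjusted p 0.110, 0.406 and 0.437, limma). Quantile normalization gave Fos -0.36 and Ier2 0.031, and averaging probes gave Ier2 0.047. With the replicate number as a block, 146 features and 0 of the 10 genes were called. The numbers do not pair the samples by the labels, and deviations of same-numbered pools correlated at 0.02, -0.02, 0.05 and 0.13. The following settings were chosen after seeing the data. Without mutant replicate 2, the replicate block called 1847 features and 2 of the 10 genes, median centring 3424 and 6, quantile normalization 3523 and 6 (Ier2 0.032), and normexp 57 and 0 (Fos -0.14, Egr3 -0.56, Ier2 0.093). Normexp with the background of those spots reset called 711 features and 3 of the 10 genes, and 3046 and 5 without mutant replicate 2. Over the 10 genes and all settings, 193 values kept their direction and side of the threshold, 41 lost the call, 11 gained it and 10 changed sign. Signal near background limits Fosb and Egr3.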
